A study of Mus musculus with 2 samples.

Results

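The 10 keratin genes described here are Krt7, Krt8, Krt18, Krt19 and Krt20, which are keratins of simple (single-layered) epithelium, Krt5, Krt14, Krt15 and Krt17, which are keratins of the basal layer of stratified epithelium, and Krt10, a keratin of the layers above it. They were taken by gene name from 43346 mouse gene entries, and all 10 matched. Polyadenylated RNA was measured in 1 biosample of adipose tissue from C57BL/6J mice, male and adult, of 10 weeks of age. It was sequenced as 2 technical libraries: library 2, technical replicate 2, which the labels date to 2015 and place outside the 2014 publication, and library 1, technical replicate 1. The labels name no treatment and no genetic change for either. A difference between the libraries cannot be told apart from a difference in their dates. The labels do not say from how many animals the biosample came or which fat depot it was. The data thus hold 1 group and no condition to compare. The spread between the libraries is technical.

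Keratins are the intermediate filament proteins of epithelial cells. Each filament is built from an acidic type I keratin and a basic type II keratin, so the genes are expressed in pairs. KRT8 with KRT18 is the pair of simple epithelium, and KRT5 with KRT14 is the pair of the basal layer. Mesothelium, the single layer of flat cells that covers visceral fat pads, and the epithelium of ducts carry simple keratins, with KRT7 and KRT19 among them. Fat cells carry vimentin instead, a filament protein of mesenchymal cells. In bulk tissue, fewer cells of a type and less RNA per cell cannot be told apart.

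Library 2 held 19256807 expected counts and library 1 held 19954869. Genes of the mitochondrial chromosome and their nuclear copies took 15.9% of the TPM (a level per transcript length, with the same total in both libraries) in library 2 and 51.7% in library 1, and without them the 5 simple keratins summed to 674 TPM in library 2 against 72.2 TPM in library 1. The label of adipose tissue was set against marker genes: all 6 adipocyte genes were above 1 TPM in both libraries and summed to 14089 TPM in library 2 against 6567 TPM in library 1. The 10 genes of epididymal principal cells, which line the epididymal duct, summed to 51718 TPM in library 2 against 44913 TPM in library 1. The part of epididymal cells in the keratin levels was not tested.

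Krt18 was the highest of the 10 in both libraries. This type I keratin lies at chr15:102028180-102032027 on the plus strand (mm10). Its level was 237.8 TPM in library 2 (95% exact Poisson interval 230 to 245, from 3870 counts) and 16.97 TPM in library 1 (15.2 to 18.8, from 352 counts). Krt8, its type II partner, lies 23697 bases away at chr15:101996698-102004482 on the minus strand. Krt8 had 180.27 TPM in library 2 (175 to 186, 3911 counts) and 9.65 TPM in library 1 (8.53 to 10.9, 267 counts). Krt8 stood at 0.758 of the Krt18 TPM in library 2 (95% interval 0.725 to 0.793) and at 0.569 in library 1 (0.483 to 0.669). The partners thus had Krt18 above Krt8 in both libraries, and the 2 intervals of their ratio did not overlap. All intervals cover counting error only.

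Krt19, a short type I keratin without the usual tail domain, lies at chr11:100140810-100148665 on the minus strand. It had 127.71 TPM in library 2 (122 to 133, 2021 counts) and 5.58 TPM in library 1 (4.34 to 7.06, 69 counts). Krt7, a type II keratin of duct epithelium and mesothelium, lies at chr15:101411043-101430313 on the plus strand. It had 20.87 TPM in library 2 (19.3 to 22.5, 648 counts) and 2.30 TPM in library 1 (1.77 to 2.93, 64 counts). Krt20, a type I keratin known from intestine, the umbrella cells of the urothelium and Merkel cells, was the low member of the simple keratins. It lies at chr11:99428403-99438150 on the minus strand and had 0.64 TPM in library 2 (0.36 to 1.06, 15 counts) and 0.37 TPM in library 1 (0.18 to 0.66, 11 counts). Its intervals overlapped between the libraries, which was so for none of the other 4 simple keratins.

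The promoters of the simple pair and of the next type II keratin are shown beside that of Krt20, because these genes span the range of levels among the simple keratins. The RefSeq table (GRCm38.p6) held a window, from 250 bases before to 50 after the RefSeq start, for 7 of the 10 genes. That start can differ from the gene ends given above. The Krt7 window lies inside the gene and covers the start of its coding transcript Krt7-201. Those of Krt8 and Krt18 reach more than 50 bases into their genes. The Krt14 window is set on the start of the shorter, noncoding Krt14-202, inside the gene, and is not the promoter of its coding transcript. Capitals mark matches to TATAAA, the TATA box letters, or to GGGCGG, the GC box letters, each searched on both strands. The windows are chr15:102027966-102028265 on the plus strand for Krt18, chr15:102004293-102004592 on the minus strand for Krt8, chr15:101412153-101412452 on the plus strand for Krt7 and chr11:99438104-99438403 on the minus strand for Krt20.
Krt18: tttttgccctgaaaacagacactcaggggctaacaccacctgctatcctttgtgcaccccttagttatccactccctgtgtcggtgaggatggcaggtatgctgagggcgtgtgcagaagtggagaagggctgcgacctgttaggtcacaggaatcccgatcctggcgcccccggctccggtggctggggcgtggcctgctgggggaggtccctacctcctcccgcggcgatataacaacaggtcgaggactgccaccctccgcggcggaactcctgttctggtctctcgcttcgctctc
Krt8: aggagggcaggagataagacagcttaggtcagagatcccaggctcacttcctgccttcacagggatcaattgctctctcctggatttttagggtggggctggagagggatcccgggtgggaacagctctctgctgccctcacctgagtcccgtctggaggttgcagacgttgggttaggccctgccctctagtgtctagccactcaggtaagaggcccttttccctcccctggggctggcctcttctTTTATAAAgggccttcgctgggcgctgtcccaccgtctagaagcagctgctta
Krt7: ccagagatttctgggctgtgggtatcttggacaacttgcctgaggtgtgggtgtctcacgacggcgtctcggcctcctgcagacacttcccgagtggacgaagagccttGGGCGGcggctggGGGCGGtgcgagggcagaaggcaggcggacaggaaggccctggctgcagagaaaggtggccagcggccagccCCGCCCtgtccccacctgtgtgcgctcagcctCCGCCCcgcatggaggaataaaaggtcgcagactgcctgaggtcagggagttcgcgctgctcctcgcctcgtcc
Krt20: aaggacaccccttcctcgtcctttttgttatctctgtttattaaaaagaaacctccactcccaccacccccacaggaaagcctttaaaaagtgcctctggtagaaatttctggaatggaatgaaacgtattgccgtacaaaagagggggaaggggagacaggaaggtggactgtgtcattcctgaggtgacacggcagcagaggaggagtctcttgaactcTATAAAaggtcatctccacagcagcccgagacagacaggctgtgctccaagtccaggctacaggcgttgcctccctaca

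The Krt7 window held 4 matches to the GC box letters. They lay at -141 and -128 on the gene's strand and at -56 and -24 on the other. Positions are counted from the RefSeq start. The Krt7 window was the richest of the 7 in GC (66.3%) and in CpG pairs (21). Krt18 had 61.3% GC and 17 CpG pairs but no match to either motif. The Krt8 window held the TATA box letters at -1 on its own strand, overlapped by a match at -3 on the other, and that of Krt20 held it at -29. Of the windows not shown, Krt10 held the TATA box letters at -26 and had the lowest GC, 42.0%, with 2 CpG pairs, and Krt5 held neither motif at 57.7% GC. Over all 32544 promoters of the table the median was 53.0% GC and 7 CpG pairs, 13.6% held the TATA box letters and 35.9% those of the GC box. TGANTCA, the letters of an AP-1 site, was in 7.79% of all promoters and in none of the 7. A match is a description of letters and not a site in use.

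Krt5 led the basal keratins in both libraries. This type II keratin of basal cells lies at chr15:101707070-101712898 on the minus strand and had 32.40 TPM in library 2 (30.3 to 34.6, 870 counts) and 3.01 TPM in library 1 (2.45 to 3.65, 103 counts). Krt14, its type I partner, lies at chr11:100203162-100207548 on the minus strand. Krt14 had 29.02 TPM in library 2 (26.7 to 31.5, 574 counts) and 0.18 TPM in library 1 (0.049 to 0.459, 4 counts). The pair was close to balance in library 2 and not in library 1. Krt5 stood at 1.12 of the Krt14 TPM in library 2 (95% interval 1.004 to 1.243) and at 16.8 in library 1 (6.36 to 62.7). Krt14 was 40.3% of the summed basal TPM in library 2 and 4.19% in library 1.

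Krt15, a type I keratin of basal cells and of hair follicle stem cells, lies at chr11:100131758-100135928 on the minus strand. It had 8.83 TPM in library 2 (7.57 to 10.2, 175 counts) and 1.11 TPM in library 1 (0.649 to 1.78, 17 counts). Krt17, a type I keratin of skin appendages and of stressed epithelium, lies at chr11:100256217-100261029 on the minus strand. It had 1.69 TPM in library 2 (1.15 to 2.41, 31 counts) and 0 counts in library 1, where 3 counts would be 0.129 TPM. Krt17 was the member listed at 0 in a library. Krt10, the type I keratin of differentiating epidermis, lies at chr11:99385254-99389364 on the minus strand and had 2.35 TPM in library 2 (1.79 to 3.02, 60 counts) and 1.32 TPM in library 1 (0.954 to 1.78, 43 counts). An antisense gene, Gm11940, overlaps it and had 8 counts in each library, so the Krt10 count is uncertain where the counting did not use strand. Krt1, the type II partner of Krt10 in epidermis, had 0 counts in both libraries and was looked up after its value was seen.

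**Figure D1:**
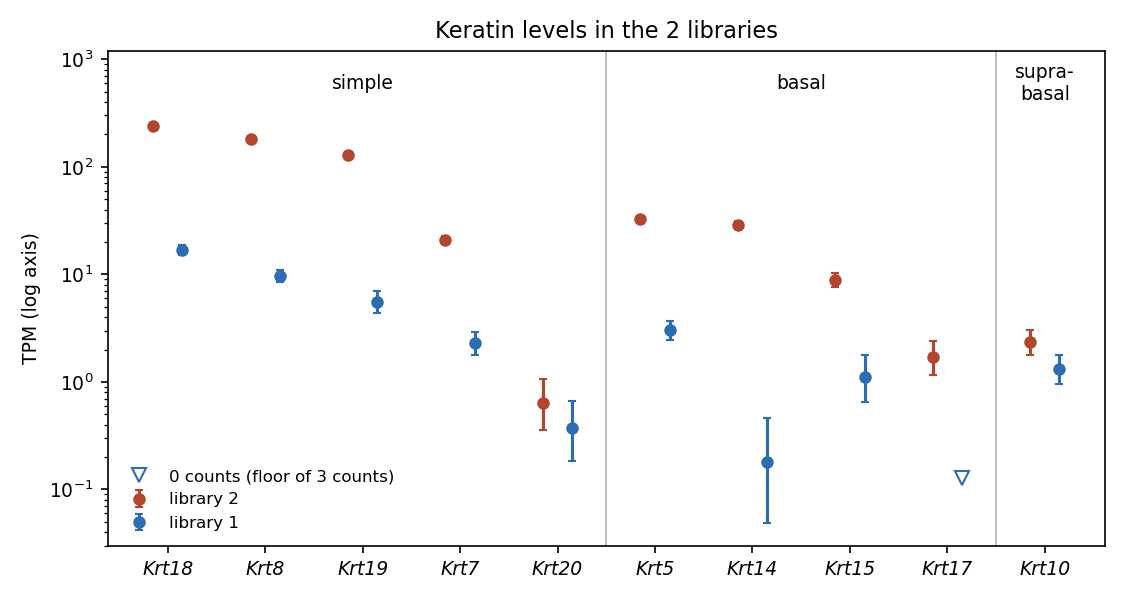
TPM of the 10 keratins on a log axis in library 2 and library 1, with 95% exact Poisson intervals of the counts; simple, basal and suprabasal keratins stand in separate groups. The intervals of 8 genes lie apart, higher in library 2, whereas the intervals of Krt20 and of Krt10 overlap between the libraries.

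The order of levels in library 2 was Krt18, Krt8, Krt19, Krt5, Krt14, Krt7, Krt15, Krt10, Krt17 and Krt20. Neighbours in it had overlapping intervals for Krt5 and Krt14 and for Krt10 and Krt17. Such overlap is not a test: the interval of the Krt5 to Krt14 ratio itself, 1.004 to 1.243, lay above 1. The order in library 1 was Krt18, Krt8, Krt19, Krt5, Krt7, Krt10, Krt15, Krt20, Krt14 and Krt17. The first 4 genes were the same in both. In library 1 Krt19 was above Krt5 by TPM but not by counts, 69 against 103. Of its 5.58 TPM there, 3.01 TPM came from Krt19-202, a short noncoding transcript, on 18.49 estimated counts. The intervals leave out error in the assignment of counts to transcripts. From Krt5 down no neighbours in library 1 differed beyond their intervals. Krt14 changed place the most, with rank 5 in library 2 and rank 9 in library 1.

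Simple keratins stood above basal keratins in both libraries and by a like ratio. They summed to 567 TPM against 71.9 TPM of basal keratins in library 2, a ratio of 7.89, and to 34.9 TPM against 4.30 TPM in library 1, a ratio of 8.11. By counts, simple keratins were 86.4% of simple plus basal keratins in library 2 (95% exact Clopper-Pearson interval 85.8 to 87.0) and 86.0% in library 1 (83.6 to 88.2). These intervals overlapped, so a difference of the simple share between the libraries was not detectable at this depth. The like ratio rests on sums. Without Krt18 the ratio was 4.58 in library 2 and 4.16 in library 1, and without Krt5 it was 14.3 in library 2 and 27.0 in library 1. Without Krt5, the basal sum of library 1 rested on the 17 counts of Krt15 and the 4 of Krt14.

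The type I genes among the 10 summed to 408 TPM and the type II genes to 234 TPM in library 2, a ratio of 1.75. In library 1 they summed to 25.5 TPM and 14.96 TPM, a ratio of 1.71. Type I keratins were thus in excess of type II keratins by TPM in both libraries.

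The files held 54 keratin genes, of which 44 were outside the 10. Of these 44, 27 had 0 counts in both libraries. Krt23, Krt80 and Krt88 averaged 1 TPM or more. Krt23, a type I keratin, had 52.21 TPM in library 2 (965 counts) and 20.45 TPM in library 1 (482 counts). In library 1 its level was above that of Krt18, with overlapping intervals (18.7 to 22.4 TPM for Krt23 and 15.2 to 18.8 TPM for Krt18), whereas in library 2 Krt18, Krt8 and Krt19 were above it. Krt80, a type II keratin, had 3.52 TPM in library 2 (75 counts) and 0.55 TPM in library 1 (15 counts). Krt88 had 2.91 TPM in library 2 (28 counts) and 0.41 TPM in library 1 (5 counts). The other 14 reached at most 1.33 TPM in a library. Of 5 of these 44 genes that could be tested, 3 were called higher in library 2 and 0 lower, against 30.1% of all genes tested, by an exact binomial test. With the trend on GC content removed 1 was called higher, against 9.52% of all genes. It was Krt79, with 34 counts in library 2 and 3 in library 1. Krt23 was called in neither setting, with a log2 ratio of 0.61 (0.46 to 0.78) as measured. The 10 genes made up 91.2% of all keratin TPM in library 2 and 64.1% in library 1, where Krt23 took 32.4%, against 7.42% in library 2.

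**Figure D2:**
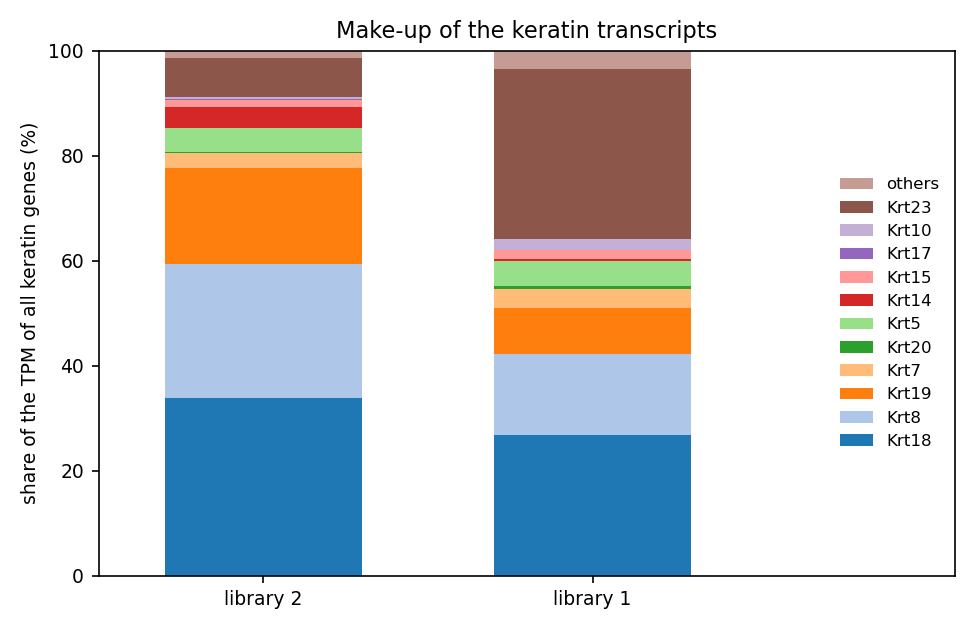
Share of the summed TPM of 54 keratin genes taken by each of the 10 genes, by Krt23 and by the other keratins, with library 2 left of library 1. Krt23 took 7.42% in library 2 and 32.4% in library 1, and Krt18 took the largest share among the 10 genes in both.

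At the level of transcripts, 19 were annotated for the 10 genes, and 6 genes had 1 transcript each. The transcript share below is the percent of the gene's TPM that the authors deposited, and the counts behind it are fractional estimates where transcripts overlap. Krt19-201, the coding transcript of 1576 bases, held 72.26% of the Krt19 TPM in library 2 and 31.54% in library 1. Krt19-202, a processed transcript of 546 bases with no coding sequence, held 0.24% in library 2 and 54.06% in library 1. These shares rest on 1.46 counts for Krt19-202 in library 2 and 18.49 counts in library 1. By counts, Krt19-201 was 85.1% of the gene in library 2 and 60.5% in library 1. The coding transcript thus led by counts in both libraries and by TPM in library 2 alone.

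Krt15 divided in the same manner. Krt15-201, the coding transcript of 1700 bases, held 96.44% in library 2 and 38.62% in library 1, and Krt15-202, a retained-intron transcript of 689 bases, held 3.56% in library 2 and 61.38% in library 1. The counts behind Krt15-202 were 2.13 in library 2 and 5.87 in library 1. Krt14-201, coding and 1698 bases long, led in both libraries with 93.69% in library 2 and 64.28% in library 1, the last on 2.98 counts. Krt7 was spread over several transcripts in each library. Krt7-201, the coding transcript of 4094 bases, led in library 2 with 39.27%, against 16.58% in library 1. Krt7-204, a coding transcript of 642 bases, held 32.02% in library 2 and led in library 1 with 37.92%, on 6.77 of 64 counts there. By counts Krt7-202, a retained-intron transcript of 3563 bases, was 25.3% of the gene in library 2 and led in library 1 with 41.8%. The leading transcript was the same in both libraries for 1 of the 4 genes with several, Krt14, and with shares from posterior mean TPM for 0 of the 4. By counts it was the same for 3 of the 4, Krt14, Krt15 and Krt19, a measure added after seeing the data.

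**Figure D3:**
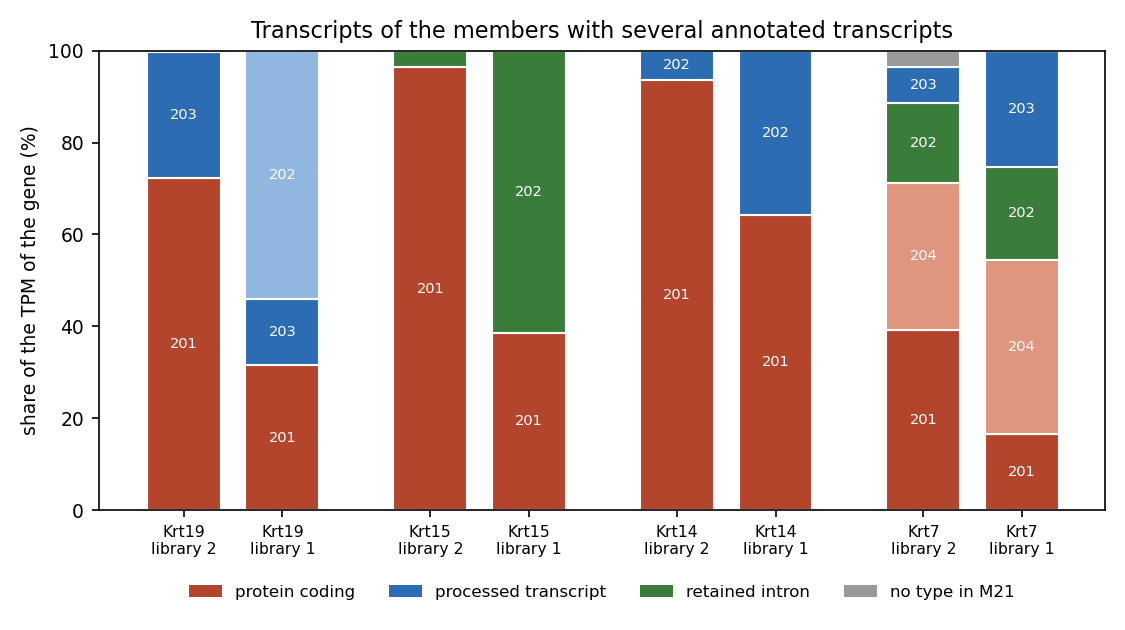
Share of each gene's TPM (%) held by its annotated transcripts for the 4 keratins with more than 1, with library 2 left of library 1. For Krt19 the coding Krt19-201 held 72.26% in library 2 and 31.54% in library 1, and for Krt14 the coding transcript led in both.

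The libraries were then set against each other over all 18275 genes with at least 10 counts in sum, by a two-sided exact binomial test with Benjamini-Hochberg adjustment. With 1 library on each side this covers counting error only and has no replicate check. Of the 10 keratins, 8 were called higher in library 2 (adjusted p below 0.05 and at least 2-fold) and 0 lower, against 30.1% of all genes tested called higher and 18.4% called lower. The 8 were Krt7, Krt8, Krt18 and Krt19 of the simple keratins and all 4 basal keratins. The median log2 ratio of library 2 over library 1 was 3.01 over the 10 genes and 0.02 over all genes tested. Among the simple keratins it was 3.07, and among the basal keratins 4.26. With the 0 counts of Krt17 in library 1 set to 3, it was 2.96 over the 10 genes and 2.96 among the basal keratins. With scaling by total counts the median of all genes was 0.46, and 85.2% of all calls were higher in library 2, against 62.1% of calls with the scaling used; the same 8 keratins were called. Under the alternatives the share of all genes called higher was 37.1% with total counts, 30.2% with DESeq2 size factors, 23.8% with no filter, 30% with 1 added to each count, 30% with posterior mean counts and 29.8% with the edgeR exact test, and 8 keratins were called in each.

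Among the genes with counts in both libraries Krt14 differed most, with a log2 ratio of 6.61 (95% exact interval 5.41 to 8.66). Krt19 followed with 4.48 (4.14 to 4.85), and Krt8 with 3.48 (3.31 to 3.67). Both are simple keratins. Krt18 had a log2 ratio of 3.07 (2.91 to 3.23), Krt7 of 2.94 (2.58 to 3.35), Krt15 of 2.94 (2.26 to 3.79) and Krt5 of 2.69 (2.40 to 3.0). Within each partner pair the intervals of the log2 ratio did not overlap: Krt8 was above Krt18, and Krt14 above Krt5. With its 0 counts in library 1 set to 3, Krt17 was 7.90-fold higher in library 2, a value that leaves out counting error. The 95% exact interval of its log2 ratio began at 2.60 and had no upper end, so Krt17 cannot be placed in this order. Krt20 had 0.04 (-1.16 to 1.33) and Krt10 0.09 (-0.50 to 0.69), with adjusted p of 1 and 0.8595 by the exact binomial test. The interval of Krt20 reached past 2-fold in both directions, so a difference of that size was not detectable at its depth.

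The 8 genes called were also the 8 richest in GC. GC content, the percent of G and C in the annotated transcripts of a gene, moved with the library difference over all genes (Spearman rho 0.894 over 11967 genes averaging 100 counts or more). Among the 10 keratins it ran between 49.5% for Krt20 and 58.9% for Krt17. Between 55 and 60% GC lay 7 of them, and 7 of 7 were called higher, in a range where 85.3% of 3339 genes were. Between 50 and 55% GC lay Krt7, called, and Krt10, not called, in a range where 38.9% of 4878 genes were called higher. Krt20 lay between 45 and 50% GC, where 2.75% of 5053 genes were called higher. Over the 10 keratins Pearson's r of GC content and log2 ratio was 0.850 and Spearman's rho 0.794. This describes 10 genes that share both libraries. Krt5 and Krt14 had 56.9% and 57.0% GC and log2 ratios of 2.69 and 6.61, the last on 4 counts in library 1.

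**Figure D4:**
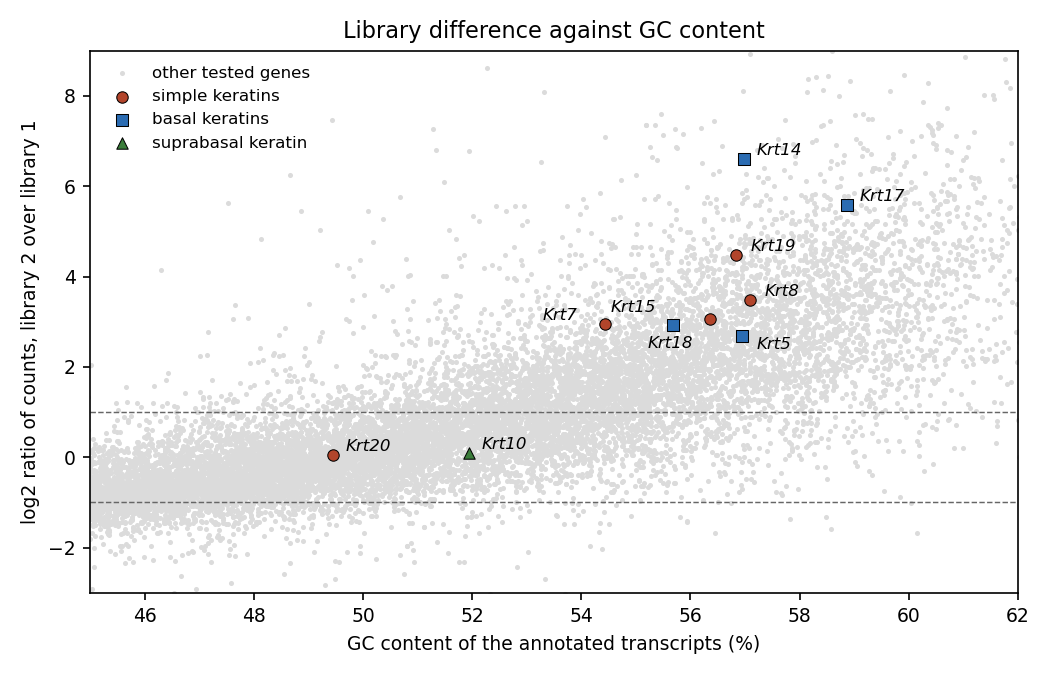
Log2 ratio of counts, library 2 over library 1, against the GC content of the annotated transcripts (%), with the 10 keratins named over the other tested genes in the same range of GC; dashed lines mark a 2-fold difference. Krt20 at 49.5% GC and Krt10 at 51.9% GC lie near 0, and the other 8 keratins lie at 2.69 or above; Krt17 is drawn at its fitted value, which is no bound.

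The coding stretch of 100 bases with the least GC inside 1 exon is shown for both members of the basal pair, for Krt18 and for Krt20. Stretches that cross an exon junction were not searched. Capitals mark G and C. The stretches are chr11:100207156-100207255 on the minus strand in exon 1 of Krt14 (49% GC), chr15:101709766-101709865 on the minus strand in exon 6 of Krt5 (49%), chr15:102029879-102029978 on the plus strand in exon 3 of Krt18 (46%) and chr11:99432852-99432951 on the minus strand in exon 3 of Krt20 (39%), on mm10 with GENCODE M21 transcripts.
Krt14: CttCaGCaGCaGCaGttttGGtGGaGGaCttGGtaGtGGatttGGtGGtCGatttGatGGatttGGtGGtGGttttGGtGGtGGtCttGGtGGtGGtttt
Krt5: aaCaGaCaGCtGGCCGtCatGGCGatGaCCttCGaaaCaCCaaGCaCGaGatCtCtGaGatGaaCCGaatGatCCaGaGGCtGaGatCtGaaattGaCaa
Krt18: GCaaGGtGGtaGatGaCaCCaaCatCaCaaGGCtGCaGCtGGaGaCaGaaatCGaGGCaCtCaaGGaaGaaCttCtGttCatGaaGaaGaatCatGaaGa
Krt20: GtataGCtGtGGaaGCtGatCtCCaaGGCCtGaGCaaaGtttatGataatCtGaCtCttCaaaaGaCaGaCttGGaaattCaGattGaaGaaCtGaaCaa

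The stretches of the basal pair had the same GC percent, and that of Krt20 had the lowest of the 4. Over windows of 400 bases, the least GC of any window was 54% for Krt14, 52.0% for Krt5, 51.8% for Krt18 and 42.0% for Krt20. Krt7 and Krt10 lay below Krt20, at 34.75% and 34.5%, and of these Krt7 was called higher and Krt10 was not. The part of base composition in the keratin counts was not tested beyond the removal of its trend.

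With the trend on GC content removed, 3 of the 10 keratins were called higher, against 9.52% of 18147 genes, and 0 were called lower, against 8.18%. They were Krt14 (log2 ratio 4.16), Krt19 (2.03) and Krt7 (1.43). Krt15 had 0.98, Krt18 0.87 and Krt8 0.80, each short of 2-fold. Krt5 had 0.24 (adjusted p = 0.179, exact binomial test) and Krt17 2.25 (adjusted p = 0.301, exact binomial test). The median over the 10 genes was 0.92. Krt10 stood at -0.46 and Krt20 at 0.06, neither called. The called genes were thus of both classes, 2 simple keratins and 1 basal keratin, and Krt14 alone of the basal pair. With the trend on the lowest GC of any 400-base window removed instead, a choice made after seeing the data, 4 were called, against 13.9% of 18088 genes: Krt7, Krt8, Krt14 and Krt15. Krt19 then had 0.96 and was not called. Krt7 and Krt14 were called in all 9 settings tried, and Krt10 and Krt20 in 0 of 9.

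**Figure D5:**
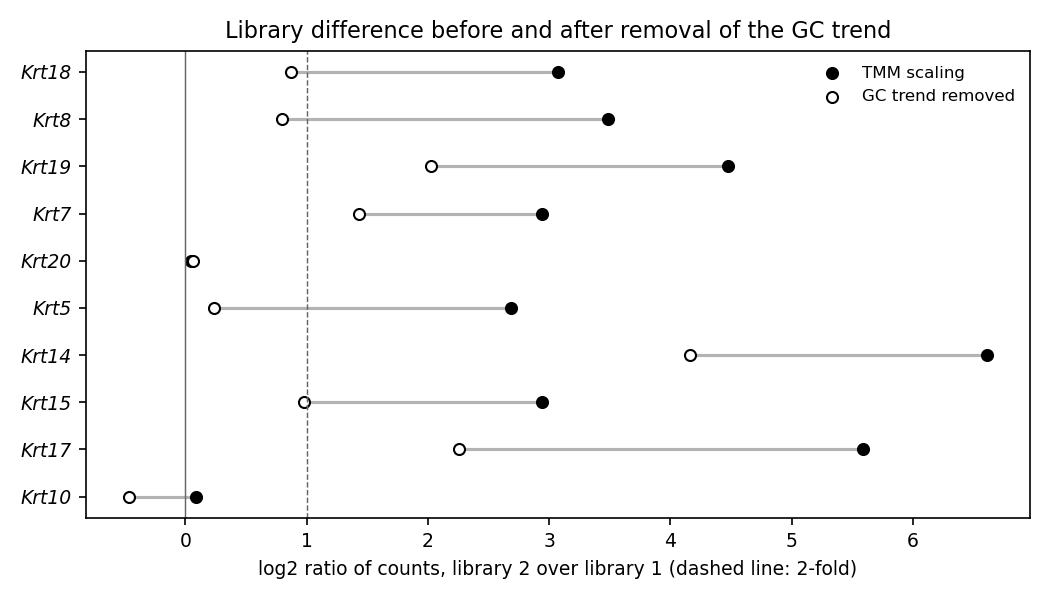
Log2 ratio of library 2 over library 1 for each keratin as measured and with the trend on GC content removed. Krt14, Krt19 and Krt7 stayed more than 2-fold and called, while Krt5 moved between 2.69 as measured and 0.24.

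Genes that work with keratins were read against the same shares of all genes, 30.1% higher and 18.4% lower, or 9.52% and 8.18% with the GC trend removed. Calls and log2 ratios rest on counts over scaled library sizes, 22407953 in library 2 and 17133731 in library 1. TPM is not scaled so, and mitochondrial genes and their copies took 15.9% of it in library 2 and 51.7% in library 1. A gene can thus have more TPM in library 2 and a log2 ratio below 0. Sums of TPM are not the tested measure. Keratin filaments end at desmosomes between cells and at hemidesmosomes under basal cells. Of 12 desmosome genes tested, 3 were higher in library 2 and 2 lower, and the list summed to 289 TPM in library 2 and 137 TPM in library 1; with the GC trend removed 2 were higher and 0 lower. Jup, which encodes plakoglobin, had 107.8 TPM in library 2 against 5.28 TPM in library 1 and was called higher. Perp had 58.66 TPM in library 2 against 49.53 TPM in library 1 and was not called (log2 ratio -0.49). Pkp2, a plakophilin, had 30.52 TPM in library 2 and 28.34 TPM in library 1, not called (log2 ratio -0.63). Of 6 hemidesmosome genes, 4 were higher and 0 lower, with sums of 379 TPM in library 2 against 120 TPM in library 1, and with the GC trend removed 0 were higher and 1 lower. Cd151, a membrane protein of hemidesmosomes, was called higher, with 238.7 TPM in library 2 and 44.29 TPM in library 1. Itga6, an integrin subunit of basal cells, had 55.15 TPM in library 2 and 48.69 TPM in library 1, not called (log2 ratio -0.59). Dst, which links filaments to hemidesmosomes, had 52.92 TPM in library 2 and 25.26 TPM in library 1, not called (log2 ratio 0.19).

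Vim, the vimentin gene, had 425.58 TPM in library 2 against 169.6 TPM in library 1 and was not called (log2 ratio 0.21). Its level was above that of Krt18 in both libraries. Of the 9 other intermediate filament genes tested, Vim among them, 3 were higher and 0 lower, and with the GC trend removed 2 were higher and 4 lower. Lmna had 64.23 TPM in library 2 against 2.95 TPM in library 1, and Des, the desmin gene of muscle, had 33.53 TPM in library 2 and 2.97 TPM in library 1, both called. Among regulators of epithelial genes, 4 of 13 were higher and 0 lower, near the share over all genes, and with the GC trend removed 0 were higher and 4 lower. Elf3, an epithelial transcription factor, had 75.92 TPM in library 2 and 6.64 TPM in library 1, called. Of the 2 epithelial splicing regulators, Esrp2 had 64.13 TPM in library 2 against 9.40 TPM in library 1 and was called. Esrp1 had 31.13 TPM in library 2 against 19.11 TPM in library 1 and was not called (log2 ratio -0.09). Of the cornified epidermis genes, which mark skin, 4 of 12 were at 0 in both libraries, Ivl and Flg among them, and 3 of 5 tested were higher, or 0 of 5 with the GC trend removed. Sbsn had 39.43 TPM in library 2 against 4.18 TPM in library 1 and was called. Tgm1, a transglutaminase, had 2.02 TPM in library 2 and 0.21 TPM in library 1, called. Dmkn had 10.25 TPM in library 2 and 4.60 TPM in library 1, not called (log2 ratio 0.17).

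Markers of the cell types that could carry these keratins were read in the same way. In both libraries all 9 matched mesothelium genes reached 1 TPM, and 3 of 9 were higher and 2 lower, or 1 and 2 with the GC trend removed. Upk3b had 44.86 TPM in library 2 against 9.26 TPM in library 1 and was called. Upk1b had 40.59 TPM in library 2 against 32.82 TPM in library 1 (log2 ratio -0.43). Rspo1 had 28.32 TPM in library 2 and 8.24 TPM in library 1 (log2 ratio 0.74). Neither was called. Of 13 duct epithelium genes, 11 reached 1 TPM in both, and 9 were higher and 0 lower. Spint2, a membrane protease inhibitor, had 370.75 TPM in library 2 against 26.5 TPM in library 1 and was called. Prom1 had 187.06 TPM in library 2 against 175.43 TPM in library 1 (log2 ratio -0.64). Epcam, the epithelial adhesion molecule, had 143.15 TPM in library 2 and 77.49 TPM in library 1 (log2 ratio 0.15). Neither was called. With the GC trend removed, 6 of the duct genes were higher and 2 lower.

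Of 7 genes of epithelial basal cells, 4 were higher and 1 lower, and with the GC trend removed 0 were higher and 2 lower. Trp63, a transcription factor of basal cells, had 14.28 TPM in library 2 and 16.38 TPM in library 1, not called (log2 ratio -0.95). Krt5 and Krt14, both called higher, had 56.9% and 57.0% GC, against 45.3% for Trp63. Trp63 stood at -0.17 with the GC trend removed, against 0.24 for Krt5 and 4.16 for Krt14, the last alone called. Cldn1, a tight junction gene, had 22.25 TPM in library 2 against 32.21 TPM in library 1 and was called lower. Clear cell genes, which mark acid-secreting cells of the epididymal duct, had 1 of 4 higher and 1 lower, or 1 and 0 with the GC trend removed. Atp6v0d2, a proton pump subunit, was the lower gene, with 39.66 TPM in library 2 and 68.48 TPM in library 1. Foxi1 had 30.84 TPM in library 2 against 19.24 TPM in library 1 (log2 ratio -0.06). Car12 had 18.3 TPM in library 2 and 17.34 TPM in library 1 (log2 ratio -0.65). Neither was called. All 3 urothelium genes were higher, and 1 of 3 with the GC trend removed. They lay between 55 and 60% GC, where 85.3% of genes were called higher. Upk1a had 22.07 TPM in library 2 against 1.36 TPM in library 1. Upk2 had 1.08 TPM in library 2 (10 counts) and 0 in library 1. Upk3a had 1.05 TPM in library 2 (13 counts) against 0.06 TPM in library 1 (1 count). Of the principal cell genes, 1 of 10 was higher and 2 lower, of the adipocyte genes 2 of 6 and 1, and of the seminal vesicle genes, which summed to 1.72 TPM in library 2 and 1.96 TPM in library 1, 0 of 1 in either direction. With the GC trend removed the counts were 0 and 0 for principal cells, 2 and 0 for adipocytes and 0 and 0 for seminal vesicle. The part of each cell type in the keratin levels was not tested.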

How the data were processed

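Polyadenylated RNA from adipose tissue of 1 biosample was sequenced as 2 technical libraries. Extraction used a kit made for lipid-rich tissue, per the labels' protocols. Text deposited with the files names mm10 and the M4 annotation. Which aligner and quantifier were run is not given in the sources used here; columns carry the names that RSEM writes.

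Expected counts for genes and transcripts were deposited by the authors as estimates that can be fractional, per the file headers. All counts of the 10 keratin genes were whole within 0.005. The authors also deposited TPM and FPKM, and each transcript's percent of its gene's TPM (the transcript share), per the file headers. Entries other than mouse genes were not used; they held 2 counts in library 2 and none in library 1. Symbols, coordinates and GC content came from GENCODE M21, a later release, in which 42462 of 43346 identifiers had a symbol and a GC value.

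Depth was 19256807 expected counts in library 2 and 19954869 in library 1. Since reads carry no molecular identifiers, intervals and floors cover counting error only. For a count of 0, a floor of 3 counts per library was used. Expected counts were rounded. Genes with at least 10 counts summed over the libraries were tested with a two-sided exact binomial test on TMM effective library sizes (edgeR 4.0.16, scipy 1.17.1), Benjamini-Hochberg adjusted over all genes tested, and called at an adjusted p below 0.05 and at least 2-fold. No spread between replicates can be estimated from 1 library a side. Log2 ratios used 0.5 added to each count. The GC trend was the median log2 ratio over 40 bins of GC content. The test was checked on simulated Poisson counts with no GC trend and no added spread. That setting is unlike these libraries, so the check does not bear on the calls made here. Alternatives were total counts, DESeq2 1.42.0 size factors, no filter, 1 added to each count, posterior mean counts and TPM, FPKM, TPM without mitochondrial genes, the exact test of edgeR at dispersion 0.01 and both GC trends.

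The named genes were all 10 keratins, other keratins averaging at least 1 TPM and, by mean TPM, up to 3 leading genes of each list. Krt1, Krt79, Plin1, Ivl and Flg were named outside this rule, with their values seen. Beside the keratins, 13 lists of 114 genes were used, of which 113 matched and 4 stood in more than 1 list. The genes and lists were chosen with earlier results of these data known.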

Additional observations from a re-analysis of the deposited data

How the results depend on the processing

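The number of keratins called higher in library 2 was 8 as reported, 3 with the GC trend removed and 4 with the lowest-window GC trend removed, which was chosen after seeing the data; it was 8 under each of the other 6 alternatives. Of 80 log2 ratios under alternatives, 69 kept their direction and side of the threshold, 3 changed sign and 9 lost the call, Krt5 doing both once. The 3 were Krt10, at -0.46 with the GC trend removed, and Krt20 and Krt5, at -0.037 and -0.32 with the lowest-window GC trend removed. The summed TPM of the 10 genes in library 2 was 642 as deposited, 604 from posterior means, 446 as FPKM and 763 without mitochondrial genes. In library 1 it was 40.5 as deposited, 34.7 as FPKM and 83.8 without mitochondrial genes. The mean over both libraries was 341, with 642 and 40.5 as the range with each library alone. The simple to basal ratio in library 2 was 6.34 by counts, 4.58 without Krt18 and 14.3 without Krt5. In library 1 it was 6.15 by counts, 6.20 with Krt10 as basal, 4.16 without Krt18 and 27.0 without Krt5. The type I to type II ratio was 1.91 in library 2 over all keratins and 1.24 by counts, and 2.94 in library 1 over all keratins and 1.14 by counts. The leading transcript was the same in both libraries for 1 of 4 genes, for 0 with posterior mean shares and for 3 by counts, which was added after seeing the data. The causes were not tested. No paired analysis was possible because there is 1 group. Depth limits Krt14 and Krt17 in library 1, at 4 and 0 counts, and Krt20 in both.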
